A study of Mus musculus with 2 samples.

Results

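Mir126a, Mir221 and Mir222 are microRNA (miRNA) genes known from the cells that line blood vessels, and their levels were read from small RNA sequencing of newborn mouse lung. They were taken by gene identifier, and all 3 had a row among the 1973 miRNA genes of the read tables. The samples were lungs of B6NCrl mice at postnatal day 0, untreated and with no engineered allele named in the labels. They form 1 group of 2 libraries, each from 2 lungs of a pup, pup 1 for replicate 1 and pup 3 for replicate 2, of pregnancy 1. The labels give both pups 1 donor record. Sex was not collected, and neither another tissue, age nor treatment was sampled. Levels are reads on the gene's own strand per 1000000 such reads on all miRNA genes (CPM).

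A miRNA is cut from a hairpin precursor and guides the silencing complex to messenger RNAs that pair with its seed, bases 2 to 8 of the mature strand. miR-126 is the best-known endothelial miRNA. It lies in the gene of the secreted endothelial protein Egfl7, it represses Spred1 and Pik3r2, which restrain signalling from the VEGF receptor, and mice that lack it have leaky, fragile vessels. miR-221 and miR-222 come from a shared primary transcript and repress the stem cell factor receptor Kit and the cell cycle inhibitor Cdkn1b (p27). In cultured human endothelial cells they restrain migration and tube formation, while in vascular smooth muscle they favour growth, so they are not markers of endothelium alone.

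The sequences of the miRNAs are shown because Mir126a differs from Mir221 and Mir222 in its seed and in what lies on the opposite strand. All 3 symbols matched RefSeq entries on GRCm38.p6, with hairpin coordinates equal to those of the gene rows. In the mature strands, written 5′ to 3′, capitals mark the seed.
mmu-miR-126a-3p: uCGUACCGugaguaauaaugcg
mmu-miR-221-3p: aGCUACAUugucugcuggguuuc
mmu-miR-222-3p: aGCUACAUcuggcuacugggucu
mmu-miR-221-5p: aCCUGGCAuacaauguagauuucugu
The 3p strands of Mir221 and Mir222 had the same first 8 bases. Compared position by position from the 5′ end without gaps, they were identical at 11 of 23 positions, or 47.8%. A stretch shifted by a base counts as different in that share. The seed of mmu-miR-126a-3p occurred in 0 other mature miRNAs of the 1679 in that set. The seed GCUACAU of mmu-miR-221-3p and mmu-miR-222-3p occurred in 1 more, mmu-miR-1928, whose gene Mir1928 had 0 reads in either library.

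Mir126a (ENSMUSG00000065540.1) lies at chr2:26591357-26591429 on the plus strand of GRCm38 (mm10). Its host Egfl7 runs from 26580014 to 26593120 and has 19 annotated transcripts, 9 of which span the precursor. In 8 of them Mir126a is intronic, and in 6 of these the intron is the same one, 600 bases long from 26591064 to 26591663, with the precursor starting 293 bases into it. In the remaining 1, annotated as a retained intron, the precursor is exonic. In the hairpins below, capitals mark the mature strands listed by RefSeq.
Mir126a: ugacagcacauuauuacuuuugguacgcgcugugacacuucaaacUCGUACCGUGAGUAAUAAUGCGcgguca
Mir221: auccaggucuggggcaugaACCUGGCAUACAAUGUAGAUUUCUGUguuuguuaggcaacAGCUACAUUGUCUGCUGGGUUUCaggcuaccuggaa
Mir222: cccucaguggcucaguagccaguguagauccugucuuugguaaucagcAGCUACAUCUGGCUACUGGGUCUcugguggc
Mir221 (ENSMUSG00000065422.1) lies at chrX:19146294-19146388 and Mir222 (ENSMUSG00000065471.1) at chrX:19146893-19146971, both on the minus strand. They are 504 bases apart, and 0 other annotated genes overlap the 678 bases they span. The nearest other miRNA gene of the tables on that chromosome is 1676765 bases away. None of the members holds a 20-base stretch found in a miRNA gene at another place, so no such stretch would lead their reads to be set aside as mapped to several miRNA genes.

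**Figure D1:**
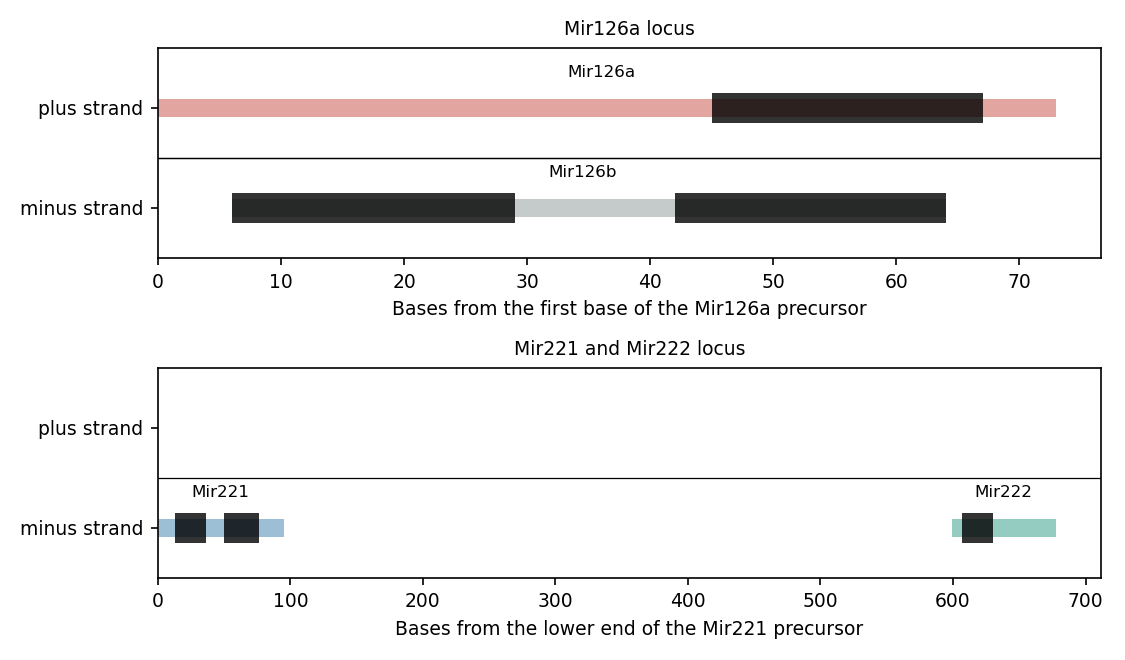
Maps of the Mir126a locus and of the Mir221 and Mir222 locus, with distance in bases along each x axis and the strand on the y axis. Pale bars are precursors and black bars are mature strands listed by RefSeq. Mir126b lies inside the Mir126a precursor on the opposite strand, and Mir221 and Mir222 are 504 bases apart on the same strand.

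Mir126a had the most counted reads of any miRNA gene in the lungs of both pups, whereas Mir221 and Mir222 stood among the genes of intermediate level. Reads mapped to several places are in no gene row and so are not part of this order. Replicate 1 held 728167 reads of Mir126a and replicate 2 held 871743, which is 160640 and 160658 CPM. The pups thus gave nearly the same level on plain own-strand totals, 160649 ± 12.4 CPM (SD, n = 2). The SD was 5480 CPM with TMM scaling of the libraries, 4234 CPM with DESeq2 size factors and 2889 CPM, around a mean of 85931, with all reads as the total. With plain totals the difference lay within counting error, since the exact Clopper-Pearson 95% interval of its share of the reads ran from 16.03% to 16.10% in each library. A gene was called detected where each library had 10 or more of its reads, and 308 genes were. Mir126a was 1135 times the median of the detected genes in replicate 1 and 1138 times in replicate 2. Intervals and detection limits cover counting error only, as PCR copies of a molecule are counted as separate reads. Genes are compared here by their reads, and whether each miRNA gave reads in proportion to its molecules was not tested.

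Mir221 had 2107 and 2431 reads in replicates 1 and 2, or 465 and 448 CPM, with a mean of 456 ± 11.9 CPM (SD, n = 2). It ranked 106 and 110 among all genes in the libraries, above 202 and 198 of the 308 detected genes. Mir222 had 1230 and 1296 reads, or 271 and 239 CPM, with a mean of 255 ± 23.0 CPM. It ranked 128 and 136, above 180 and 172 of the detected genes. Mir221 was 3.28 and 3.17 times the median of the detected genes in replicates 1 and 2, and Mir222 was 1.92 and 1.69 times that median. Both therefore lay above the middle of the detected miRNAs in each pup, and the values of the 3 members did not overlap.

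**Figure D2:**
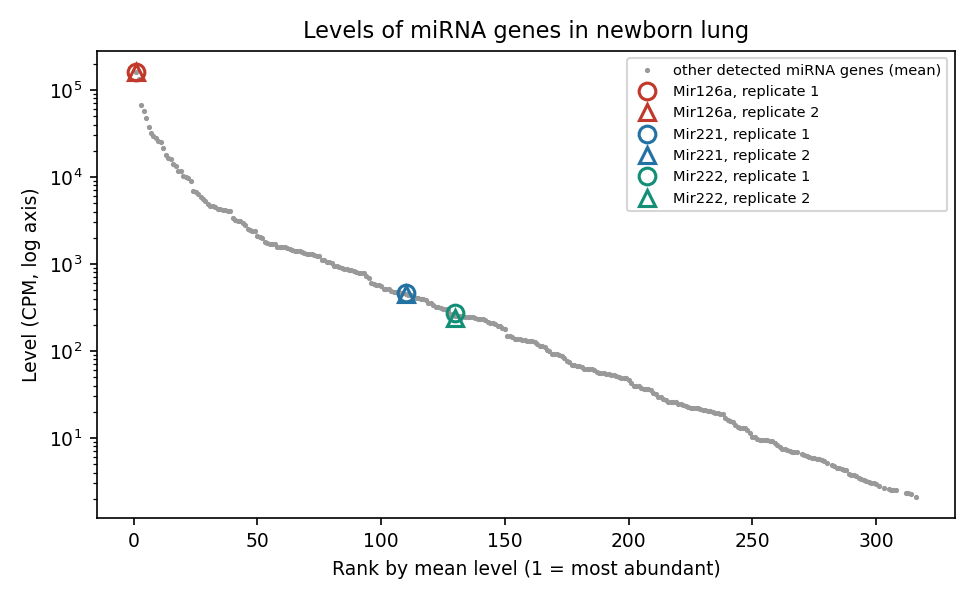
Level in CPM on a log axis against rank by mean level for the 308 detected miRNA genes, grey points showing means over 2 libraries. Circles (replicate 1) and triangles (replicate 2) show Mir126a at the top of the curve and Mir221 and Mir222 at mean ranks 110 and 130.

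The top place of Mir126a held in the reads that were counted. Mir322, a miR-15/16 family miRNA, was next at 135595 and 133379 CPM in replicates 1 and 2, followed by Mir143, known from smooth muscle cells, at 65604 and 70070 CPM. Mir335, hosted by the imprinted gene Mest, stood at 57917 and 56521 CPM. Mir126a exceeded Mir322 by 1.19-fold, Mir143 by 2.37-fold and Mir335 by 2.81-fold on the mean CPM, and the lower Mir126a value was above the higher value of each. Reads mapped to several places numbered 2860715 and 3812820, more than those of Mir126a in either library, and they are in no gene row. A miRNA with near-identical gene copies could therefore hold more reads than Mir126a without showing it in these tables. Of all reads, those with no gene included, Mir126a took 8.80% in replicate 1 and 8.39% in replicate 2.

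The members of the Mir221 and Mir222 pair each had neighbours in the order of levels that could not be separated from them. Around Mir221, the pups' values overlapped in range with those of Mir181b-2, Mir467e and Mir3071 above it and of Mir467d and Mir676 below it. Mir374b, at 432 and 439 CPM, lay below both Mir221 values. Around Mir222, the ranges overlapped with those of Mir187 and Mir672 above and of Mir185, Mir31 and Mir199b below, and Mir450b, at 279 and 311 CPM, lay above both Mir222 values. The exact place of either gene in the order is thus not fixed by 2 libraries.

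**Figure D3:**
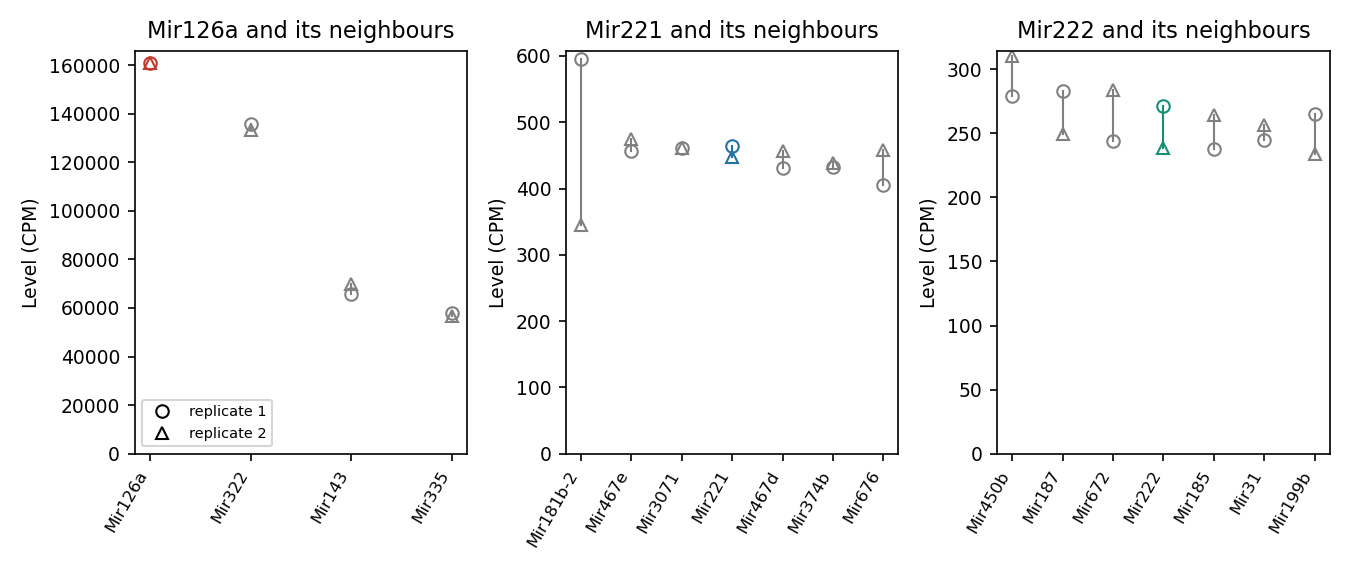
Level in CPM of each member and of the genes up to 3 places above and below it by mean level, with circles for replicate 1, triangles for replicate 2 and a line joining them. Mir126a stands clear of the genes below it, while Mir221 at 465 and 448 CPM and Mir222 at 271 and 239 CPM overlap most of their neighbours.

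Mir221 and Mir222, though they come from a shared transcript, were not read equally. Mir221 exceeded Mir222 by 1.71-fold in replicate 1 and 1.88-fold in replicate 2, a log2 ratio of 0.84 ± 0.093 (SD, n = 2). Mir221 made up 63.1% of the reads of the pair in replicate 1 (exact Clopper-Pearson 95% interval 61.5% to 64.8%) and 65.2% in replicate 2 (63.7% to 66.8%). The intervals of the pups overlap, and both lie above an equal share. A read covers a whole mature miRNA, so reads were not divided by length. Per base of precursor, 95 bases for Mir221 and 79 for Mir222, the log2 ratio was 0.58 ± 0.093, still in favour of Mir221. The arms of each precursor were counted together, so their separate parts in this ratio are unknown here. Ratios between genes carry no p, because with 2 libraries an exact sign-flip test (two-sided) cannot go below 0.5.

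Mir126a stood far above the pair. Its reads were 218 times the summed reads of Mir221 and Mir222 in replicate 1 and 234 times in replicate 2, a log2 ratio of 7.82 ± 0.071 (SD, n = 2), or 8.10 ± 0.075 per base of precursor. Against each alone, the log2 ratio of Mir126a was 8.46 ± 0.038 over Mir221 and 9.30 ± 0.13 over Mir222. Per base of precursor, Mir126a had 2201 CPM, Mir221 had 4.80 CPM and Mir222 had 3.23 CPM on the mean of the pups. In whole lung, a miRNA read in few cells and one read weakly in many cells cannot be told apart.

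The strand opposite to Mir126a carries an annotated gene of its own, Mir126b, and the reads there were very few. The Mir126b precursor lies at chr2:26591363-26591420 on the minus strand and is the reverse complement of bases 7 to 64 of the 73-base Mir126a hairpin. It has no row in the tables, but every base of it lies within the Mir126a gene, so reads on it would fall among those opposite to Mir126a. For Mir126a, RefSeq lists 1 mature strand, mmu-miR-126a-3p, and the reads of both arms were counted together. For Mir126b it lists the mature strands below, shown with the seed in capitals. Of them, mmu-miR-126b-5p lies opposite most of mmu-miR-126a-3p and yet has another seed.
mmu-miR-126b-5p: aUUAUUACucacgguacgaguu
mmu-miR-126b-3p: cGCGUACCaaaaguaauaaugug
Replicate 1 had 14 reads opposite to Mir126a and replicate 2 had 19. That is 0.00192% of the reads on either strand of the locus in replicate 1 (exact Clopper-Pearson 95% interval 0.00105% to 0.00323%) and 0.00218% in replicate 2 (0.00131% to 0.00340%). Own-strand reads were 52012 and 45881 times as many. The reads at the locus thus came almost entirely from the Mir126a strand in both pups. Over all miRNA genes, 1.81% and 1.96% of the reads lay on the opposite strand, and 14 and 22 of the 308 detected genes had any such read. Mir221 and Mir222 had 0 reads on the opposite strand in both libraries. With 3 reads taken as what a count of 0 allows, the share is up to 0.142% and 0.123% for Mir221 in replicates 1 and 2. By that rule it is up to 0.244% and 0.231% for Mir222. The exact Clopper-Pearson 95% interval reaches higher, to 0.175% and 0.152% for Mir221 and to 0.299% and 0.284% for Mir222.

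The pups were then compared for each member, with 1 library on each side, so that the test compares these libraries and not conditions. Over the libraries together, 375 genes reached 10 reads, of which 159, or 42.4%, differed in a two-sided exact binomial test of the split of reads with Benjamini-Hochberg adjustment at 0.05. Of the 3 members, 1 did, which against that background is no result about them. Mir222 was higher in replicate 1, by a log2 ratio of replicate 1 to replicate 2 of 0.18 and 1.14-fold (adjusted p = 0.00441, exact binomial test). Mir221 had a log2 ratio of 0.053 (adjusted p = 0.359) and Mir126a one of -0.00016 (adjusted p = 0.993) in the same exact test, and neither passed.

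The Mir222 call depended on how the libraries were scaled. With TMM scaling its log2 ratio was 0.11 (adjusted p = 0.0945, exact binomial test) and with DESeq2 size factors it was 0.13 (adjusted p = 0.0556), so the call was lost. For Mir126a the same scalings gave -0.070 and -0.054, both past the threshold. The log2 ratio of all genes moves by -0.069 and -0.054 under them, so the Mir126a values are that shift. The split of all called genes moved as well. Plain totals gave 87 higher and 72 lower in replicate 1, or 54.7% higher, and TMM gave 61 higher and 101 lower, or 37.7% higher. Each library had 100 or more reads of 225 genes, and over these the median size of the log2 ratio was 0.17. The ratio of Mir126a was the smallest of these in size with plain totals, that of Mir221 exceeded 34 of them and that of Mir222 exceeded 123.

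Over 2 libraries the pattern of a gene is a single ratio, so likeness between genes says little. By the smallest gap in that log2 ratio, Mir126a was closest to the epithelial miRNA Mir200c and to Mir3071, Mir221 to Mir505 and Mirlet7f-2, and Mir222 to Mir181a-2 and Mirlet7c-1.

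**Figure D4:**
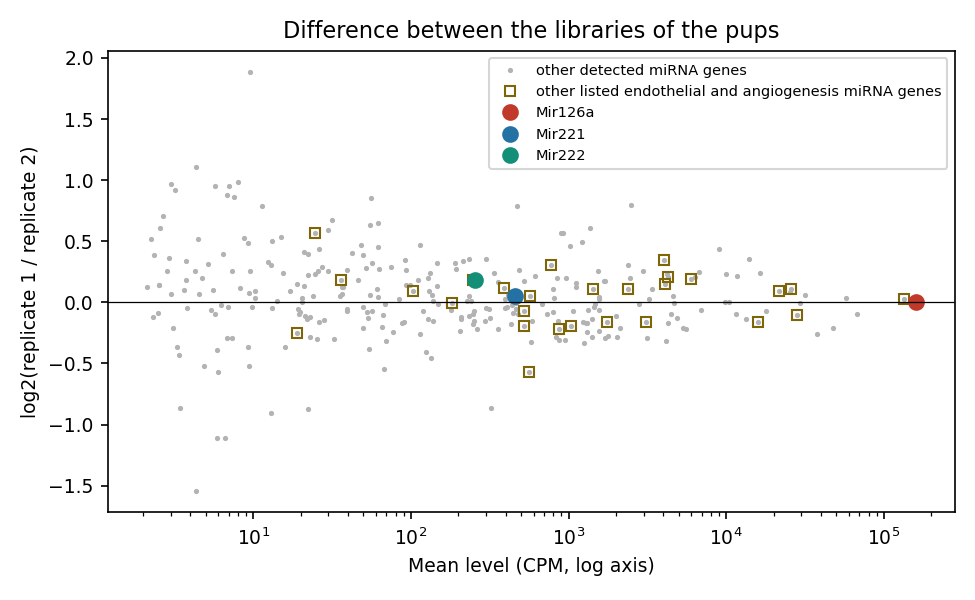
Log2 ratio of replicate 1 to replicate 2 against mean level in CPM (log axis) for the detected genes, with Mir126a, Mir221, Mir222 and the other listed endothelial and angiogenesis genes marked. Mir126a lies at -0.00016, Mir221 at 0.053 and Mir222 at 0.18, within the spread of the other genes.

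Other miRNAs known for acting in endothelium or in vessel growth were set beside the members. Of 34 listed genes, 17 were listed for promoting vessel growth or endothelial identity, Mir126a among them. The other 17 were listed for restraining vessel growth or endothelial growth, Mir221, Mir222 and Mir322 among them. Of the 34, 30 had a row, and all 30 were detected. They totalled 422350 and 418454 CPM in replicates 1 and 2, or 42.0% of the reads on the mean, of which Mir126a made up 38.2%. After Mir126a, the highest were Mir322 at 134487 ± 1567 CPM (SD, n = 2), Mir23a at 28307 ± 1470 CPM, Mir23b at 25860 ± 1348 CPM, Mir130a at 21644 ± 966 CPM and Mir10a at 15932 ± 1251 CPM. Mir23a and Mir23b are known for promoting sprouting of vessels, and miR-130a, in human endothelial cells, for repressing the anti-angiogenic homeobox genes Meox2 and Hoxa5. Mir221 and Mir222 were among the lower members of the list, next to hypoxia-induced Mir210 at 389 ± 21.8 CPM. The list median of the mean level was 952 CPM, above Mir221 at 456 CPM and Mir222 at 255 CPM, against 56.4 CPM over the 375 genes tested.

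Mir126a alone held fewer reads than the other 29 listed genes with a row together, by a log2 ratio of -0.69 ± 0.015 (SD, n = 2). A 20-base stretch found in a miRNA gene at another place is held by 10 of the 30, Mir23a, Mir23b, Mir27a, Mir27b, Mir24-2, Mir16-1, Mir92-1, Mir92-2, Mir218-1 and Mir218-2, whose reads can be too few here. Without them the log2 ratio was -0.29 ± 0.018. That value is not a correction for missing reads, since reads added to those genes would take the ratio below -0.69. Of the 30 listed genes with a row, 22 (73.3%) differed between the libraries in the exact binomial test, against 42.4% of all genes tested, 14 higher and 8 lower in replicate 1, with a median log2 ratio of 0.072 against 0.028 over all genes tested. The listed genes had more reads than most genes tested, by the medians of 952 and 56.4 CPM, and the part of depth in that share was not tested. The largest difference among those called was that of Mir218-1, at a log2 ratio of 0.57 from 134 and 108 reads. Mir218-2 went the other way, at -0.25 from 78 and 111 reads, and was not called. Next in size among those called was Mir296, an miRNA known from tumour vessels, at -0.57 from 2037 and 3612 reads.

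**Figure D5:**
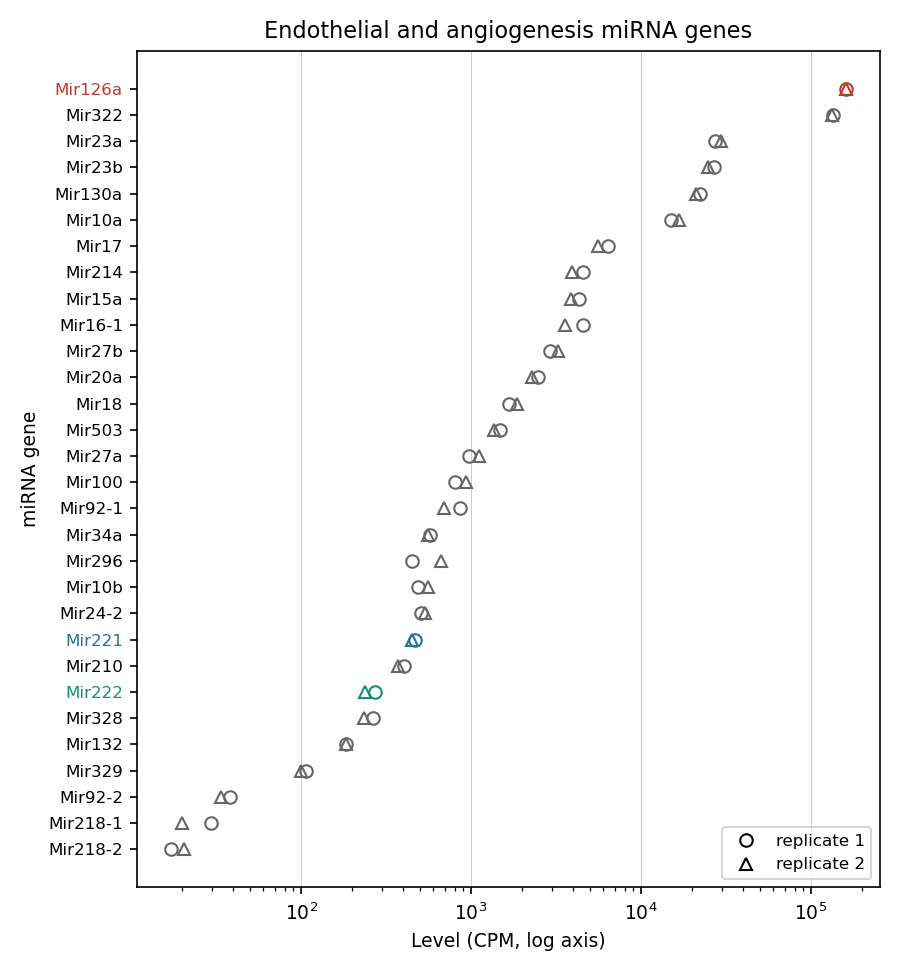
Level in CPM on a log axis of the 30 listed endothelial and angiogenesis miRNA genes with a row, in falling order of mean level, with circles for replicate 1 and triangles for replicate 2. Mir126a is at the top, and Mir221 and Mir222 are in the lower part of the list.

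The levels of markers of the other cells that lung holds were set beside that of Mir126a. For endothelium itself the fixed markers were Mir126a and Mir126b, and with no row for Mir126b the endothelial reading rests on Mir126a alone. The lung and airway epithelium list had all 6 of its members detected and totalled 32744 and 32592 CPM in replicates 1 and 2, led by Mir429 at 11543 ± 541 CPM (SD, n = 2). The smooth muscle markers Mir143 and Mir145a totalled 67174 and 71609 CPM, and in such cells Mir221 and Mir222 are also known to act. The leukocyte list totalled 2250 and 2517 CPM over the 4 of 6 members with a row, led by the myeloid miRNA Mir223 at 1307 ± 106 CPM. Its members Mir142 and Mir142hg had no row, so that total leaves them out. The erythroid list totalled 1306 and 1149 CPM, led by Mir451a at 890 ± 246 CPM. Mir126a exceeded the epithelial total 4.92-fold and the smooth muscle total 2.32-fold on the mean. These are ratios of reads of different miRNAs, and the share of each cell type in the lungs was not tested. How much of the Mir221 and Mir222 reads came from each of these cell types was not tested.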

How the data were processed

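Small RNA of under 30 bases, per the labels, was sequenced from 2 newborn mouse lung samples. The authors deposited 1 table of whole-number read counts per library, not normalized, on mm10 with GENCODE M4 per the deposited description of the files. Which aligner, counting program and filters they used is not given in the sources used here. The counts on either strand equalled own-strand plus opposite-strand counts in every gene row, which is how the columns were read. The own-strand totals were 4532902 and 5426081 reads on miRNA genes in replicates 1 and 2. Totals and tests leave out 4 rows with no gene name. These held, in replicates 1 and 2, 34.6% and 36.7% of all reads as multiply mapped, 8.49% and 8.69% as unmapped, 2.18% and 2.41% as on no feature, and no ambiguous read.

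Of 1973 identifiers, 1894 were found in GENCODE M21, which uses mm10's assembly GRCm38, and the 79 others held 1 read in all. Stretches of 20 bases were searched in M21 precursors on both strands. CPM, intervals and tests were computed here in Python 3.11.15 with scipy 1.17.1. TMM factors came from edgeR 4.0.16 and size factors from DESeq2 1.42.0. With 1 library on each side edgeR's quasi-likelihood test could not be run, so a two-sided exact binomial test was used. It covers counting error only. A detected gene had at least 10 reads in each library. The p-values thus set the difference between these libraries against counting error, and they do not measure the spread between pups. Nothing but the labels says that the libraries come from separate pups, so such a difference may be technical.

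The members and gene lists were chosen with earlier results of these data known. Named were the members, Mir126b, the 6 highest listed genes, the genes up to 3 places above and below each member, the 2 genes of closest ratio to each, the highest marker of each list, and further listed genes. Mir1928 and the largest differences in the list were named after their values were seen. Mir18a, Mir92a-1 and Mir92a-2 were found through RefSeq synonyms in the rows Mir18, Mir92-1 and Mir92-2. The list groups genes by what they are best known for, and several are described either way.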

Additional observations from a re-analysis of the deposited data

Results flagged for a closer look

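Reads on the strand opposite to Mir126a, in a column of the tables that the levels do not use, numbered 14 in replicate 1 and 19 in replicate 2, above the 3 reads that a count of 0 allows. They are few beside the 728167 and 871743 reads on the Mir126a strand. The annotated gene on that strand is Mir126b, which has no row, and whether the reads are of Mir126b was not tested.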

How the results depend on the processing

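No paired analysis was possible because the libraries form 1 group. Against the level of Mir126a, 160649 CPM, the alternatives gave 157624 CPM with either-strand reads, 160696 with TMM, 160677 with DESeq2 size factors, 191397 with Mir126a left out of the total and 85931 with all reads as the total. Leaving Mir126a out of the total gave 544 CPM for Mir221 and 304 for Mir222, and all reads gave 244 and 137. Without 1 replicate each, Mir126a was 160640 to 160658 CPM, Mir221 448 to 465, Mir222 239 to 271, log2 of Mir221 over Mir222 0.78 to 0.91, Mir126a over the pair 7.77 to 7.87 and over the list -0.70 to -0.68. Per base of precursor, those log2 ratios were 0.58, 8.10 and -0.45, and the list ratio was -0.29 without members holding a shared stretch. The log2 ratio of replicate 1 to replicate 2 of Mir126a changed sign with either-strand reads (0.0020, adjusted p 0.550, exact binomial test) and with all reads (0.069, past the threshold), and passed with TMM (-0.070) and DESeq2 (-0.054). That of Mir221 changed sign with TMM (-0.016) and DESeq2 (-0.00050) and passed with all reads (0.12). That of Mir222 missed the threshold with TMM (0.11) and DESeq2 (0.13). The moves under TMM and DESeq2 equal the shift that each scaling gives all genes. The count of 159 called genes ranged from 127 without a filter, where more genes were tested, to 165. With 2 libraries, the spread between pups is known poorly.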
